A study of Mus musculus with 36 samples.

Results

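Mageb1, Mageb2, Mageb5 and Magea4 are 4 genes of the Mage family, the melanoma antigen genes, on the mouse X chromosome. They are followed here through the 250 kb windows (mm10) that hold the midpoints of the genes, 4 windows of the 353 in which both alleles carried enough signal to form a ratio. The genes were chosen by the measured allelic ratio of their windows in the 24 h comparison of Spen mutant and WT cells, so values from that comparison are given as a description with no test. The 3 h libraries, the SPOC mutant libraries and the inputs were not used to pick them. The question put to the data is where along the X chromosome a Polycomb mark is laid down once Xist RNA is switched on, and what Spen contributes.

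Mage genes of type I (Magea, Mageb, Magec) are cancer-testis genes. They are transcribed mainly in germ cells of the testis, are silent in most other tissues and can be switched on in tumours, whereas type II genes (Maged, Magee, Mageh, Magel) are transcribed in many tissues. Proteins of both types share the MAGE homology domain, through which several of them bind RING-type ubiquitin ligases. The mark measured here, H2AK119ub1, is a single ubiquitin on histone H2A that Polycomb repressive complex 1 places, and it accumulates on the X chromosome that Xist RNA coats. Spen is an RNA-binding protein that Xist recruits through its RNA recognition motifs (RRM) and that silences genes through its SPOC domain.

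All cells were female mouse embryonic stem cells of the iXist-ChrX line, a 129S x Cast hybrid in which a TetOn promoter replaces the Xist promoter on the 129S allele. The Spen mutant clones also carry a deletion of the Spen RRM. Clones C3 and D4 of the 24 h series and clone C3 of the 3 h series are labelled as making a spurious truncated product, and clone C4 of the 3 h series as a full KO. The SPOC mutant clones carry a mutated SPOC domain of Spen (E7 and H1 at 24 h, C11 and H1 at 3 h), and the WT cells carry only the Xist promoter exchange. Each clone or WT replicate gave a pair of libraries, one with doxycycline (1 µg/mL, given 3 h or 24 h) and one without. There were 2 pairs per mutant in each series, 1 WT pair in the 3 h series and 3 WT pairs in the 24 h series. In all, 24 H2AK119ub1 libraries and 12 inputs (all of the 24 h series) were used.

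Libraries of the 3 h series were processed on one day, whereas Spen clones, SPOC clones and each WT replicate of the 24 h series were processed on separate occasions, so genotype and occasion cannot be told apart there. In 4 libraries, the H2AK119ub1 libraries of the SPOC clones at 24 h, title and file name give opposite states. The states of the file names are used, and read by the titles every change in these clones takes the opposite sign. Signal is the deposited normalised coverage per window, with a scaling and a read depth that are not given in the sources used here. It summed over chromosome X to between 116006 and 277241 in H2AK119ub1 libraries. Nothing in the labels says which strain is genome 1 or genome 2. The measurement is the log2 ratio of genome 2 over genome 1 within a library, in which a scaling shared by both alleles cancels, and a change is the induced minus the uninduced library of a pair. In bulk chromatin, a larger share of marked cells and more mark per cell cannot be told apart, and transcription of these genes was not measured.

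The windows are far larger than the genes. Mageb2 (gene 17146, X:91331905-91332897) lies in the window X:91250001-91500000 with Gm5072 and Gm8914, Mageb5 (X:91779608-91782976) in X:91750001-92000000 with Gm5071, and Mageb1 (X:92015191-92016333) in X:92000001-92250000. Magea4 (X:72221015-72222964) shares X:72000001-72250000 with Cnga2, a channel subunit of olfactory neurons. The gene itself makes up 0.78% of its window for Magea4, 0.40% for Mageb2, 1.35% for Mageb5 and 0.46% for Mageb1, so a value describes the neighbourhood and not the gene. Bodies of protein-coding genes cover 2% to 4.9% of these windows, except in that of Mageb1, where they cover 52.9%, much of it the body of Mageb18. The 3 Mageb windows lie 11.35 to 12.1 Mb from Xist, and Magea4 lies 31.35 Mb from it. Without induction the Mageb5 window held 0.64 times the allelic signal of the median window (median of 12 libraries), against 0.99 for Mageb2, 1.02 for Mageb1 and 1.08 for Magea4.

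Promoter sequences of 2 of the 4 genes, Magea4 and Mageb5, were matched in RefSeq (GRCm38.p6, 250 bases before to 50 after the start of the promoter entry). They are shown because Polycomb complexes are known to dock at promoters rich in CpG, and that of Maged1, a broadly transcribed type II gene, is set beside them. Capitals mark CpG dinucleotides. The Magea4 stretch (X:72221767-72222066) lies wholly inside the gene as placed above (X:72221015-72222964). It therefore does not surround the first base of that gene, and its letters may not describe a promoter there.
Magea4, X:72221767-72222066, plus strand: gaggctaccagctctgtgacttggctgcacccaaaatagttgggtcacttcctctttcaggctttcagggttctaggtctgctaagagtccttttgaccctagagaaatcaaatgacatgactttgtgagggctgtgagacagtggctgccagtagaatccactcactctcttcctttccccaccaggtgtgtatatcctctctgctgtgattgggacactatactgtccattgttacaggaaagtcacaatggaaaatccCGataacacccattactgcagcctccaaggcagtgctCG
Mageb5, X:91782927-91783226, minus strand: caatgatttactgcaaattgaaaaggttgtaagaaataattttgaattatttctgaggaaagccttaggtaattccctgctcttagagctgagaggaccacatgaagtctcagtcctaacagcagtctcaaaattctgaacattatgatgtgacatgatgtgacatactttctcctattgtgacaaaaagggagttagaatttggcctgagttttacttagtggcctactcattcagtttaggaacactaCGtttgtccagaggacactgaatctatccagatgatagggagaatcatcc
Maged1, X:94541976-94542275, minus strand: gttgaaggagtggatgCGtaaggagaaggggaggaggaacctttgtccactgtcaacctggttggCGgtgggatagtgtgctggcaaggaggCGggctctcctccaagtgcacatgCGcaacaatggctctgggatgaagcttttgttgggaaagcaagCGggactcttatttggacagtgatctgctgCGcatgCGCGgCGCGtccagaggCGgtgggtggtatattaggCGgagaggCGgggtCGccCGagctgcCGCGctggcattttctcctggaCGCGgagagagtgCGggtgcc
The Magea4 stretch, which may not be a promoter, holds 2 CpG. The Mageb5 promoter holds 1, against 20 in that of Maged1 and a median of 7 over 32851 promoters of the same length. GC content was 48.7% in the Magea4 stretch and 38.3% in the Mageb5 promoter, against 60.3% in Maged1 and a median of 52.7% over all. The motif CACGTG (its own reverse complement), the E-box core of several transcription factors, was in none of the 3 sequences and in 7.2% of all promoters. These are descriptions of the letters, since windows of 250 kb do not resolve a promoter.

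After 3 h of induction the mark was higher on genome 2 in all 4 Mage windows, in each genotype. In the Spen clones C3 and C4 the log2 ratio of the Magea4 window was 1.18 and 0.92 with doxycycline, against 0.27 and -0.06 without. The SPOC clones C11 and H1 had 1.57 and 1.42 with doxycycline, against 0.49 and 0.27 without. The WT pair had 1.72 with and 0.28 without. Induced and uninduced libraries did not overlap, and the mean change was 0.94 ± 0.05 in Spen and 1.11 ± 0.05 in SPOC mutant clones (SD, n = 2 each), against 1.44 in the single WT pair.

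On average the 3 Mageb windows gained less than the Magea4 window in each genotype of the 3 h series. The Mageb2 ratio changed by 0.58 and 0.44 in the Spen clones and by 0.92 and 0.94 in the SPOC clones, against 1.11 in WT. The Mageb5 ratio changed by 0.55 and 0.46 in the Spen clones and by 1.11 and 0.70 in the SPOC clones, against 0.66 in WT. The Mageb1 ratio changed by 0.54 and 0.43 in the Spen clones and by 1.04 and 0.69 in the SPOC clones, against 0.80 in WT. Spen clones thus had the smallest change of the genotypes in each Mageb window, with no overlap with SPOC clones or the single WT pair. This order is not particular to these windows. The median change over all windows was 0.44 in both Spen clones, 0.77 and 0.70 in the SPOC clones and 1.10 in WT.

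In limma (Benjamini-Hochberg at 0.05 over 353 windows) the change was called in 4 of 4 Mage windows in the Spen clones, where 43.9% of all windows were called. It was called in 4 of 4 in the SPOC clones (74.5% of all windows) and in 4 of 4 in WT (79.6%). The calls in Spen clones lay near the threshold for the 3 Mageb windows, with adjusted p = 0.0319 for Mageb2, 0.0334 for Mageb5 and 0.0413 for Mageb1, against 3.36e-05 for Magea4. They were lost without Spen clone C3 and without SPOC clone C11 or H1, which enter through the shared estimate of the spread. Only Magea4 was then called, and fewer of all windows were called as well. Without SPOC clone C11 the SPOC changes of Mageb5 (0.70) and Mageb1 (0.69) were no longer called, and again fewer of all windows were called. With SPOC clone C11 or H1 left out, Mageb5 in WT was no longer called, and fewer of all windows were called in WT too.

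These calls are of the ratio as it stands. Relative to the median window of each library, called centring, 1 of 4 windows was called in the Spen clones (Magea4 at 0.51, where 41.9% of all windows were called in either direction). In the SPOC clones 1 of 4 was called too (Magea4 at 0.41, with 55.5% of all windows called). In WT, Magea4 was called higher at 0.34 (adjusted p = 0.0401, limma) and Mageb5 lower at -0.44 (adjusted p = 0.0256), with 56.1% of all windows called. The centred changes of Mageb2 and Mageb1 were not called in any genotype at 3 h, nor was that of Mageb5 in the mutants.

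**Figure D1:**
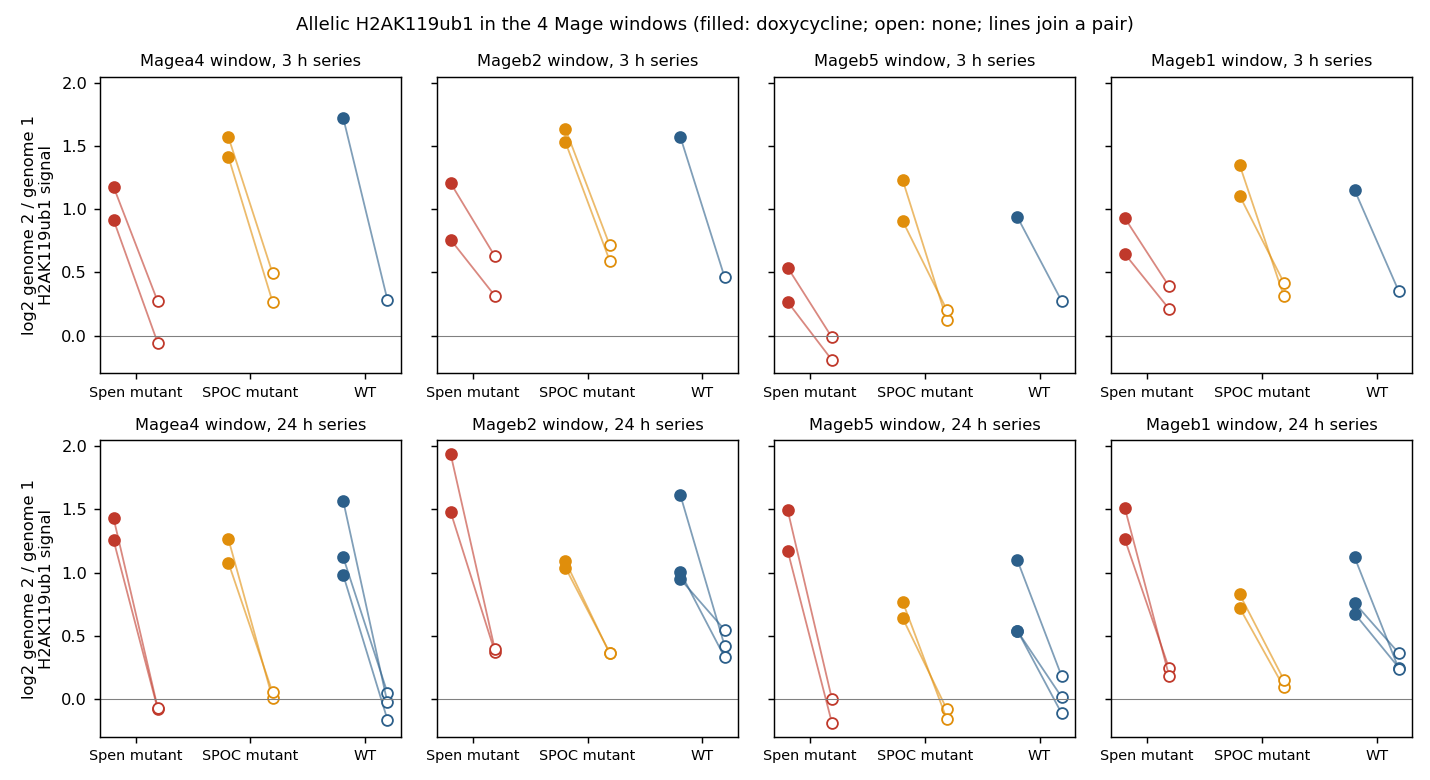
The log2 ratio of genome 2 over genome 1 H2AK119ub1 signal (vertical axis) in the windows of the 4 genes (columns) in the 3 h series (top) and the 24 h series (bottom). Each filled point is a library with doxycycline, each open point one without, and lines join the libraries of a clone or WT replicate. SPOC states at 24 h are those of the file names. The Mageb5 ratio with doxycycline is 1.17 and 1.49 in the Spen clones at 24 h and 0.54 and 0.27 at 3 h.

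How the Spen clones compared with WT at 3 h depends on the scale. Over all windows the median Spen minus WT difference of changes was -0.60 on the ratio as it stands, since the median window gained less in the Spen clones. On that scale the Mage windows had differences of -0.60 (Mageb2), -0.16 (Mageb5), -0.31 (Mageb1) and -0.50 (Magea4), each ± 0.36 (SE). After centring the differences were 0.07 ± 0.16 (Mageb2), 0.51 ± 0.18 (Mageb5), 0.36 ± 0.18 (Mageb1) and 0.17 ± 0.16 (Magea4). The sign of all 4 thus turns with centring. With Spen clone C3 left out the centred Mageb2 difference was -0.011.

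None of the 4 windows passed the test on either scale at 3 h. On the centred ratio 2.55% of all windows were called (86 of 353 at an unadjusted p under 0.05), and Mageb5 was nearest among the 4 with adjusted p = 0.128. On the ratio as it stands 13.6% were called. In the limma fit that pairs the libraries of a clone (replicate block), Mageb5 was called higher in Spen clones on the centred ratio, with adjusted p = 0.0311. There 42 of 353 windows were called higher and 17 lower. On the ratio as it stands the same block called Mageb2 and Magea4 lower in Spen clones, with adjusted p = 0.00343 and 0.0088 (limma). It called 259 of 353 windows lower and 2 higher, so lower calls were common among all windows. WT has a single pair at 3 h, so its error is taken from the mutant clones.

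The SPOC clones were compared with WT at 3 h in the same way. Their centred differences from WT were 0.21 ± 0.16 for Mageb2, 0.64 ± 0.18 for Mageb5, 0.46 ± 0.18 for Mageb1 and 0.07 ± 0.16 for Magea4. None of the 4 was called in limma, and neither was any other window (0% of 353, 48 at an unadjusted p under 0.05). With the replicate block Mageb5 was called higher in SPOC clones (adjusted p = 0.0147, limma), where 13 of 353 windows were called higher and 8 lower. Set against each other at 3 h, Spen and SPOC clones had centred differences (Spen minus SPOC) of 0.10 ± 0.13 for Magea4, -0.14 ± 0.13 for Mageb2, -0.13 ± 0.15 for Mageb5 and -0.10 ± 0.15 for Mageb1. These were not called (adjusted p = 0.660 to 0.780, limma), as was no window (0% of 353, 36 at an unadjusted p under 0.05).

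After 24 h the Spen clones had, on average, the highest ratio in the 3 Mageb windows. The Mageb5 ratio was 1.17 and 1.49 in induced Spen clones C3 and D4, 0.64 and 0.77 in induced SPOC clones E7 and H1, and 0.54, 0.54 and 1.10 in induced WT replicates 1 to 3. Without doxycycline it was -0.19 and 0.00 in Spen clones, -0.08 and -0.16 in SPOC clones and -0.11, 0.02 and 0.18 in WT. Spen clones lay above the other induced libraries, while the uninduced libraries overlapped. The change averaged 1.43 ± 0.09 in Spen and 0.83 ± 0.15 in SPOC mutant clones (SD, n = 2 each), against 0.70 ± 0.20 in WT (SD, n = 3).

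In Mageb2 and Mageb1 the Spen clones were also highest on average. The Mageb2 ratio changed by 1.11 and 1.54 in the Spen clones and by 0.67 and 0.73 in the SPOC clones, against 0.67, 0.40 and 1.19 in WT. WT replicate 3, whose median change over all windows was 1.23 against 0.81 and 0.82 in the other two, reached into the range of the Spen clones. The Mageb1 ratio changed by 1.02 and 1.33 in the Spen clones and by 0.63 and 0.68 in the SPOC clones, against 0.43, 0.40 and 0.88 in WT. Here the Spen clones lay above all other pairs.

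On the ratio as it stands, Magea4 showed no such separation at 24 h. Its ratio changed by 1.34 and 1.50 in the Spen clones and by 1.26 and 1.03 in the SPOC clones, against 1.14, 1.07 and 1.59 in WT. The genotypes overlapped on that scale. On the centred ratio its change was 0.69 and 0.84 in the Spen clones and 0.54 and 0.31 in the SPOC clones, against 0.32, 0.22 and 0.34 in WT, and the Spen clones lay above all other pairs. On the ratio as it stands, Magea4 in WT gained 1.27 ± 0.28 (SD, n = 3), more than the Mageb windows, whose WT means were 0.57 to 0.75.

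The Spen minus WT difference at 24 h is the contrast by which the windows were picked. As a description, it was 0.57 (Mageb2), 0.73 (Mageb5), 0.60 (Mageb1) and 0.15 (Magea4) on the ratio as it stands, with a median of 0.59 against -0.16 over all windows (-0.03 without WT replicate 3). On the centred ratio it was 0.90, 1.06, 0.93 and 0.48 in the same order, with a median of 0.91 against 0.17. Mageb5 ranked 2, Mageb1 8, Mageb2 11 and Magea4 89 of 353 from the top. In that contrast 53.3% of all windows were called on the centred ratio and 26.9% on the ratio as it stands. On that last scale 12 windows were called higher and 83 lower, and without WT replicate 3 these counts were 51 and 89. The centred median of the 4 was 1.09 without Spen clone C3 and 0.73 without Spen clone D4.

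**Figure D2:**
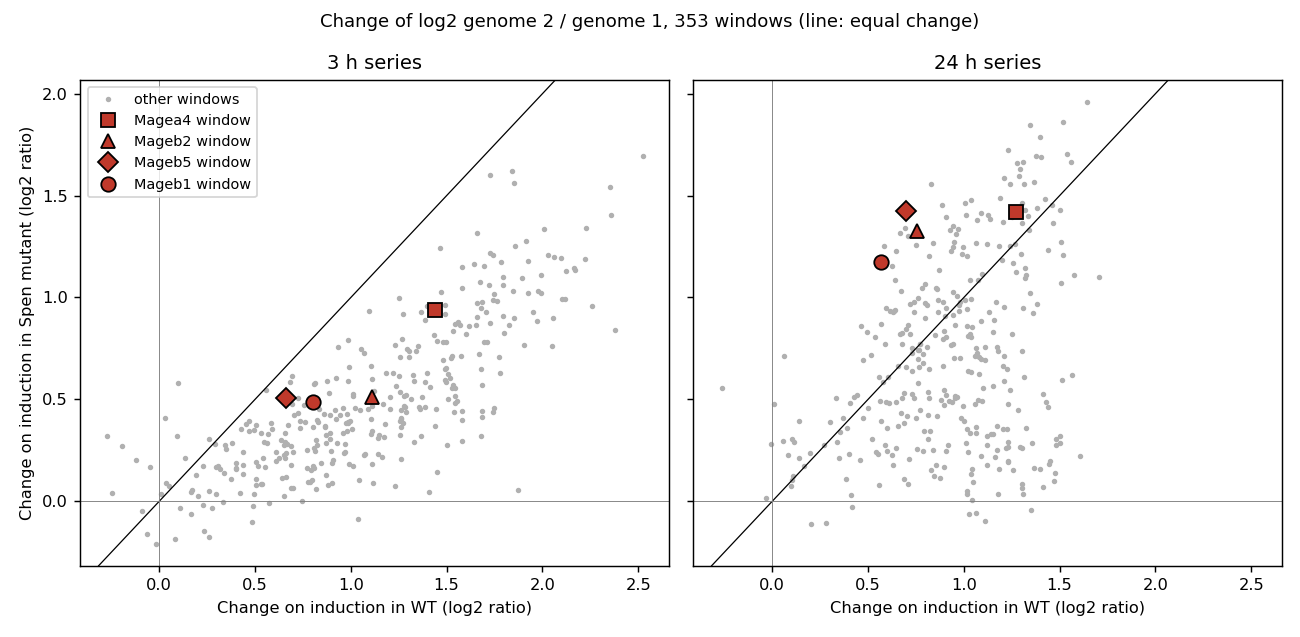
Change of the log2 ratio as it stands on induction in Spen mutant clones (vertical axis) against that in WT (horizontal axis) for 353 windows, in the 3 h series (left) and the 24 h series (right), with the line of equal change. Grey points are windows without one of the 4 genes. At 3 h the Mageb windows lie below the line among the others, and at 24 h they lie above it, at 1.17 to 1.43 in Spen mutant clones and 0.57 to 0.75 in WT.

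The SPOC clones at 24 h played no part in choosing the windows, although the WT libraries they are set against did. On the ratio as it stands their change was called higher in 4 of 4 Mage windows in limma (83.3% of all windows were called), with adjusted p from 2.87e-09 for Magea4 to 3.63e-04 for Mageb1. Read by the titles it was called lower in 4 of 4, at -1.14 for Magea4, -0.70 for Mageb2, -0.83 for Mageb5 and -0.65 for Mageb1. On the centred ratio the SPOC change by file name was called in 1 of 4, Magea4 at 0.42 (adjusted p = 0.00212, limma), where 51.6% of all windows were called in either direction. It was -0.02 for Mageb2, 0.11 for Mageb5 and -0.07 for Mageb1, none of them called. Against WT, the centred SPOC difference was 0.21 ± 0.16 for Mageb2, 0.39 ± 0.16 for Mageb5, 0.34 ± 0.12 for Mageb1 and 0.13 ± 0.13 for Magea4. None of these was called (4.82% of all windows were, and adjusted p was 0.115 to 0.540 in the 4). Read by the titles, Magea4 was called lower (-0.72, adjusted p = 1.04e-04, limma) and Mageb1 higher (0.48, adjusted p = 0.00299). By that reading 115 of 353 windows were called higher and 114 lower.

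The gain lay on genome 2. In the 24 h series, genome 2 signal of the 4 windows changed by 1.10 to 1.53 (log2) over the pairs of Spen clones and by 0.48 to 1.30 over those of SPOC clones, against 0.54 to 1.70 in WT. Genome 1 signal changed by -0.21 to 0.08 in Spen clones and by -0.27 to 0.10 in SPOC clones, against -0.06 to 0.23 in WT. In the 3 h series genome 1 changed by -0.03 to 0.41 in Spen clones and by -0.10 to 0.27 in SPOC clones, against 0.03 to 0.25 in WT. Unlike the ratio, signal of a single allele depends on how the authors scaled the libraries. As a share of both alleles, genome 2 held 69.3% and 73.9% of the Mageb5 signal in induced Spen clones at 24 h, against 59.2%, 59.1% and 68.1% in induced WT.

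The uninduced libraries and the inputs give the background of the ratio. In the 3 h series the uninduced Spen minus WT difference of the ratio was -0.18 for Magea4, 0.01 for Mageb2, -0.38 for Mageb5 and -0.05 for Mageb1, each ± 0.25 (SE). It was called in none of the 4 windows and in no other (0% of 353, 3 at an unadjusted p under 0.05). In the 24 h series it was -0.12 to -0.03 over the 4 windows. In the 12 inputs, the median log2 ratio was 0.06 for Magea4 (-0.18 to 0.21), 0.27 for Mageb2 (-0.01 to 0.68), 0.13 for Mageb5 (-0.27 to 0.36) and 0.08 for Mageb1 (-0.19 to 0.40). The median over all windows was also 0.06, and Mageb2 stood at the 94.3 percentile of windows, so its ratio in the inputs was offset toward genome 2. After subtraction of each library's input, leaving out WT replicate 3, for which none was used, the 24 h SPOC change was called in 2 of the 4 windows. Mageb2 stood at adjusted p = 0.135 and Mageb5 at 0.0605 (limma). In that fit 243 of 353 windows were called higher and 0 lower.

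Total signal of all reads, centred on the library median, gives a readout that needs no assignment to an allele. At 24 h the centred Mageb5 total changed by 0.15 and 0.19 (log2) in the Spen clones and by -0.34 and -0.28 in the SPOC clones, against -0.16, -0.34 and -0.32 in WT. Relative to the median window, the Spen clones thus gained where SPOC clones and WT lost. Mageb2 and Mageb1 did likewise, at 0.23 and 0.37 and at 0.14 and 0.27 in the Spen clones. Their totals changed by -0.20 and -0.19 (Mageb2) and -0.16 and -0.33 (Mageb1) in SPOC clones, against -0.21 to -0.16 and -0.31 to -0.24 in WT. The SPOC change was called lower in limma in the 3 Mageb windows and in none for Magea4, where 47.2% of 669 windows were called lower.

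The total Spen minus WT difference at 24 h, a description like the ratio above, was 0.48 (Mageb2), 0.44 (Mageb5), 0.49 (Mageb1) and 0.09 (Magea4), where 55.2% of all windows were called. At 3 h it was 0.12 ± 0.12, 0.22 ± 0.09, 0.22 ± 0.11 and -0.05 ± 0.11 (SE) in the same order. None of the 4 was called at 3 h (11.1% of all windows were), with the smallest adjusted p at 0.106 for Mageb5.

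The windows around the 3 Mageb genes moved with them. The 4 gene windows have 9 further windows within 2 steps of 250 kb, and in these the centred Spen minus WT difference at 24 h had a median of 0.63 (0.09 to 0.82). It was 0.63 to 0.82 in those around the Mageb genes and 0.09 to 0.35 in those around Magea4, against a median of 0.17 over all windows. The 24 h change in Spen clones was 1.25 in the window of Gm44 and 1.27 in one with no protein-coding gene, both ahead of Mageb2. It was 1.40 in the window of Mageb17-ps, between Mageb2 and Mageb5, and 1.42 in that of Mageb18, next to Mageb1. WT changed by 0.94, 0.84, 0.91 and 1.09 in these windows. None of the 9 was called for Spen minus WT at 3 h or for SPOC minus WT at 24 h on the centred ratio.

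In a wider stretch, values on the ratio as it stands give a description with no test. In windows from 2.00 Mb before to 1.00 Mb after that of Mageb5, the 24 h change in Spen clones was 0.94 to 1.56, above that in WT in each. From 1.75 to 2.75 Mb after, the Spen clones stayed between 0.07 and 0.37, SPOC clones between 0.72 and 1.59, and WT between 1.18 and 1.50. Among the genes of those windows are Pcyt1b, Pdk3, Zfx with Eif2s3x, Apoo and Maged1. At 3 h the Spen clones were below WT in 20 of 20 windows of the stretch on the ratio as it stands, but in 10 of 20 on the centred ratio. At 24 h they were above WT in 13 of 20 windows on the ratio as it stands and in 14 of 20 on the centred ratio.

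**Figure D3:**
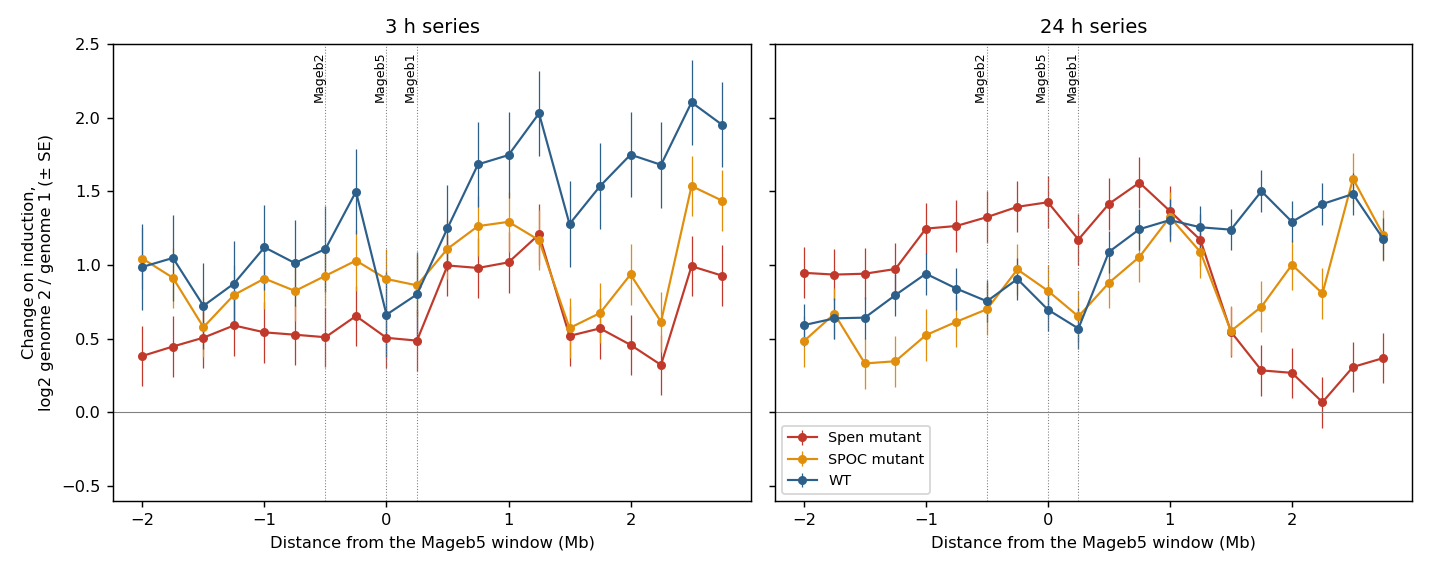
Change of the log2 ratio as it stands on induction (vertical axis, ± SE from the fit) in windows around that of Mageb5 (horizontal axis, distance in Mb) for Spen mutant, SPOC mutant and WT cells, in the 3 h series (left) and the 24 h series (right), with SPOC states at 24 h as in the file names. Dotted lines mark the windows of the 3 Mageb genes. At 24 h the Spen mutant line runs above WT up to 1.00 Mb and falls to 0.07 at 2.25 Mb, where WT stands at 1.41.

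Over the 24 H2AK119ub1 libraries the 3 Mageb windows moved together, with Pearson's r of the centred ratio between 0.86 and 0.89. Magea4 correlated with them at 0.38 (Mageb1), 0.50 (Mageb5) and 0.61 (Mageb2). Outside their flanks, the windows most like Mageb2 (r = 0.88 at X:97750001-98000000), Mageb5 (0.87 at X:63500001-63750000) and Mageb1 (0.86 at X:65750001-66000000) hold no protein-coding gene. So does the window most like Magea4 (0.96 at X:70750001-71000000), followed by that of Heph, a copper-dependent iron oxidase gene, and Gpr165 (0.95). Of all 353 windows, 35.4% hold no protein-coding gene, counted by midpoint. All points share their libraries, so these values are a description.

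RefSeq lists 27 genes on X whose symbol begins with Mage, 22 of type I and 5 of type II, in 19 windows. Of these, 12 windows have an allelic ratio and 7 lie past the end of the allelic data. The 7 run from X:104750001-105000000 (Magee2) to X:155000001-155250000 (Magea1, Magea2 and Magea5). In the 8 allelic windows without one of the 4 genes, the centred Spen minus WT difference at 24 h had a median of 0.06 against 0.17 over all windows. It is given as a description, since it is the contrast that picked the 4 genes. The highest values were in the windows of Mageb17-ps (0.82), Mageb18 (0.65) and Mageb4 with 4 pseudogenes (0.58). The first and second of these adjoin the windows described above, and that of Mageb4 lies apart, at X:86250001-86500000.

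Of the other type I windows, Magea10, next to Magea4, had a centred difference of 0.18, Mageb16 one of -0.07, Magea7-ps one of -0.12 and Magea9-ps one of -0.21. The lowest value was in the window of Maged1, a type II gene whose protein binds the p75 neurotrophin receptor, at -0.48. No one of the 8 was called for Spen minus WT on the centred ratio at 3 h, where 2.55% of all windows were called. On the ratio as it stands 1 of the 8 was called lower at 3 h, that of Maged1 (-1.02 ± 0.36, SE), where 13.6% of all windows were called.

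Past the allelic data, total signal gives 7 more Mage windows that played no part in picking the genes. At 24 h the centred Maged2 total changed by -0.22 and -0.18 in the Spen clones and by 0.36 and 0.52 in the SPOC clones, against 0.37, 0.34 and 0.39 in WT. The Mageh1 total changed by -0.42 and -0.35 in the Spen clones and by 0.29 and 0.50 in the SPOC clones, against 0.37, 0.28 and 0.34 in WT. In both type II windows, which hold 2 (Maged2) and 4 (Mageh1) protein-coding genes, the Spen clones lost relative to the median window where the other genotypes gained. Maged2 is a gene in which human mutations cause an antenatal form of Bartter syndrome, a salt-losing kidney disorder. The Spen minus WT difference was -0.56 ± 0.08 for Maged2 (adjusted p = 3.59e-05) and -0.71 ± 0.08 for Mageh1 (adjusted p = 8.13e-06, limma). Magee1 (-0.15 ± 0.09, adjusted p = 0.143) and Magee2 (0.01 ± 0.08, adjusted p = 0.946) were not called.

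Of the 3 type I windows past the allelic data, 2 were higher in Spen clones at 24 h. The window of Magea3, Magea6 and Magea8 changed by 0.12 and 0.31 in the Spen clones and by 0.04 and 0.06 in the SPOC clones, against -0.09, -0.12 and -0.02 in WT. The difference from WT was 0.29 ± 0.08 (adjusted p = 0.00581), and without Spen clone D4 it was 0.20 (adjusted p = 0.120) and no longer called. The window of Mageb16-ps1 changed by 0.32 and 0.29 in the Spen clones and by 0.11 and 0.12 in the SPOC clones, against 0.03, 0.00 and 0.14 in WT, a difference of 0.25 ± 0.07 (adjusted p = 0.00474). The window of Magea1, Magea2 and Magea5 was not called (0.09 ± 0.08, adjusted p = 0.332). Genes of this Magea cluster are close copies, and how reads that match several copies were placed is not given in the sources used here. In this contrast 26.9% of 669 windows were called higher and 28.3% lower.

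At 3 h, where libraries were processed on one day, 2 of the 4 type II windows were again called and none of the 3 type I windows was. Maged2 changed by -0.01 and -0.21 in the Spen clones and by 0.34 and 0.33 in the SPOC clones, against 0.73 in WT. Mageh1 changed by -0.17 and -0.07 in the Spen clones and by 0.19 and -0.04 in the SPOC clones, against 0.46 in WT. The Spen minus WT difference was -0.83 ± 0.12 for Maged2 (adjusted p = 0.0149) and -0.59 ± 0.11 for Mageh1 (adjusted p = 0.0245), where 5.68% of windows were called lower. Without Spen clone C4 both were at adjusted p = 0.0659, and without Spen clone C3 that of Mageh1 was 0.122. The other type II windows, of Magee1 (-0.194 ± 0.105) and Magee2 (-0.035 ± 0.146), were not called. The 3 type I windows had -0.14 to -0.05 and were not called.

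**Figure D4:**
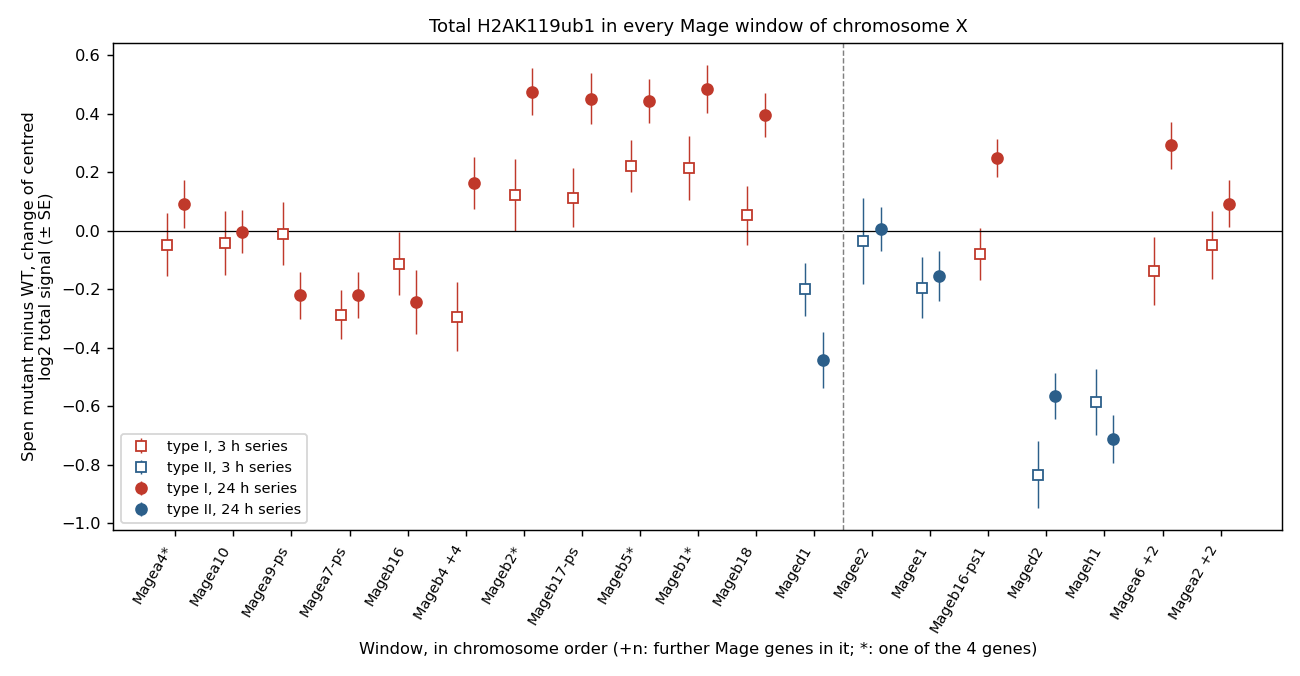
Spen mutant minus WT difference in the change of centred log2 total signal (vertical axis, ± SE from the fit) for the 19 windows with Mage genes in chromosome order, in red for type I and blue for type II, open squares for the 3 h series and filled circles for the 24 h series. Windows right of the dashed line have no allelic ratio. At 24 h the Mageb windows from Mageb2 to Mageb18 lie at 0.40 to 0.49, and Maged2 and Mageh1 at -0.56 and -0.71.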

How the data were processed

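Native ChIP-seq of H2AK119ub1 and input DNA were read from the deposited files, whose values are a normalised coverage signal per 250 kb window of chromosome X, made by the authors from reads processed with Bowtie2 2.2.6, Picard and bedtools on mm10, per the submitters' processing notes. The scaling of the signal, the read depth and the strain of each genome are not given in the sources used here, so no counting error is given and replicates set the precision. The spike-in was not used.

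For the log2 ratio of genome 2 over genome 1, a pseudocount of 1% of the file's median window was added to both. A window needed a mean signal of 10% of the median window or more on each allele, which left 353 of 414 allelic windows, and 669 of 685 windows of total signal. Centring subtracts the median window of a library. Changes and their differences were tested with limma 3.58.1 in R 4.3.3, one fit per series with a mean per genotype and state, two-sided, with Benjamini-Hochberg adjustment at 0.05 over all windows kept. The fit was tested on simulated data. Clones and WT replicates are the replicates, and limma draws the spread of each window toward that of all windows. On the ratio as it stands at 3 h, the SE was the same in the 4 windows (0.205 for a mutant change, 0.29 for WT). At 24 h it was 0.172 to 0.176 for a mutant change. P-values on that scale thus rest on a spread pooled over windows, not on that between the pairs in the window. Neighbouring windows are not independent.

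Libraries of a clone are one cell line, and a WT number marks a shared occasion, so the numbers pair libraries. Across windows, the paired libraries' deviations from the means of their groups had correlations of 0.00 (Spen) and 0.11 (SPOC) at 24 h, 0.16 (Spen) and 0.31 (SPOC) at 3 h, and -0.10 to 0.03 in WT. The fit with a replicate block was run as an alternative.

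Genes were placed by midpoint from RefSeq (GRCm38.p6), and 2 of the 4 genes had a promoter entry. The genes named are the 4 genes, windows within 2 steps of theirs, every Mage gene on X and the 2 windows most like each. The members and lists were chosen with earlier results of these data known. Alternatives were other pseudocounts (5% and 0.1%), no filter, scaling by the SD over windows, a mean with neighbouring windows, input subtraction, the block, titles for SPOC states and each pair left out. Those for Mage windows past the allelic data were chosen after seeing the data. Python 3.11.15, pandas 2.3.3, numpy 2.4.6 and matplotlib 3.10.9 were used.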

Additional observations from a re-analysis of the deposited data

Results flagged for a closer look

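At 24 h the 3 Mageb windows moved in opposite directions in Spen clones and in WT in every pair of libraries, relative to the median window of each library. These differences were not tested, because the windows were picked on this contrast. The share of all windows with opposite directions in every pair is not given here, so how unusual this is cannot be said. For Spen minus WT on the centred ratio, 53.3% of 353 windows were called in limma. For the centred log2 ratio, the mean change of Mageb2 was 0.67 in Spen clones and -0.23 in WT, that of Mageb5 was 0.77 in Spen clones and -0.28 in WT, and that of Mageb1 was 0.52 in Spen clones and -0.41 in WT. Mageb1 changed by 0.52 in Spen clones and by -0.07 in SPOC clones, also opposite in every pair. For Mageb2 and Mageb5 that did not hold between Spen and SPOC clones on the ratio.

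For centred total signal the direction in Spen clones was opposite to that in SPOC clones and in WT, in every pair and again not tested. Here too the share of all windows with such directions is not given, and 55.2% of 669 windows were called for Spen minus WT in limma. The mean change of Mageb2 was 0.30 in Spen clones, -0.20 in SPOC clones and -0.18 in WT. That of Mageb5 was 0.17 in Spen clones, -0.31 in SPOC clones and -0.27 in WT. That of Mageb1 was 0.21 in Spen clones, -0.24 in SPOC clones and -0.28 in WT. Spen clones, SPOC clones and WT replicates of this series were processed on separate occasions, and genotype and occasion cannot be told apart.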

How the results depend on the processing

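Groups hold 1 to 3 pairs, and the read depth is unknown. Of the counts and medians recomputed under other settings with all pairs kept, 75 stayed within 1.5 times of the count, or within the spread between pairs, 9 moved and 1 reversed. The reversed one is the 24 h SPOC change, called higher in 4 of 4 windows by file name and lower in 4 by title (-1.14, -0.70, -0.83 and -0.65), because the states are exchanged. By title, 2 of 4 windows were called for SPOC minus WT at 24 h on the centred ratio, where 115 of 353 windows were called higher and 114 lower. By file name with neighbouring windows averaged, 1 was called, where 19 of 329 windows were called higher and 19 lower. Dividing by the SD over windows gave a median 24 h Spen minus WT difference of 1.80 in SD units and a turned sign for Mageb2 at 3 h (-0.045, and -0.011 without Spen clone C3). Input subtraction with WT replicate 3 left out, which changes both choices at once, left 2 calls in the 24 h SPOC change (243 of 353 windows higher, 0 lower). The replicate block pairs the libraries of a clone. With it 1 of 4 windows was called for Spen minus WT at 3 h on the centred ratio (42 of 353 higher, 17 lower). On the ratio as it stands 2 were called (2 of 353 higher, 259 lower). For SPOC minus WT on the centred ratio 1 was called (13 of 353 higher, 8 lower). The block changed no other count for the 4 windows by over 1.5 times. Averaging neighbouring windows gave 1 call for Spen minus WT at 3 h on the centred ratio (Mageb1, adjusted p = 0.0257, limma), where 27 of 329 windows were called higher and 14 lower. Without a filter on low windows the 3 h Spen change was called in 1 of the 4 windows, where 143 of 398 windows were called higher and 0 lower. The cause was not tested in these cases.

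With each pair left out in turn, the median 24 h Spen minus WT difference was 0.73 to 1.09 centred and 0.40 to 0.78 as it stands. Calls for the 3 h change were 1 to 4 in Spen clones, 2 to 4 in SPOC clones and 3 to 4 in WT, and 0 to 2 for type II windows in total signal at 3 h. Where a pair left out lowered these calls, fewer of all windows were called as well. The uninduced comparison has no fit with a block, since WT has 1 library there.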
